A study of Mus musculus with 20 samples.

Results

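Of the 20 mouse embryonic hearts in this series, 7 gave RNA sequencing libraries in which over 10% of all reads fell on genes of the mitochondrial chromosome. The description below is of the 10 hearts of the Ts1Rhr cohort, 5 Ts1Rhr hearts and 5 of wild-type (WT) littermates, which were divided at a mitochondrial read share of 10% into 5 libraries over the cut and 5 under it. The libraries were selected on this measured share, which is the sum over the genes of chromosome M divided by the sum over all genes of a library, and the division is not a group of the study. In the 10 hearts of the Dp3Tyb cohort, which took no part in choosing the leading genes described below, 2 libraries were over 10% and 8 under it. All hearts were taken at stage E13.5 and frozen before RNA extraction, and libraries were made with a kit that captures poly(A) RNA. Dp3Tyb and Ts1Rhr mice are models of Down syndrome in which a segment of mouse chromosome 16 is present in an extra copy, and the Ts1Rhr segment is the shorter one. Replicate numbers follow the order of deposit and only name a heart. Nothing in the labels pairs hearts across genotypes or says which hearts shared a litter or a preparation day. The p-values set differences against the spread between these hearts and treat the hearts as independent, which could not be checked.

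The mitochondrial genome encodes 13 proteins, all of them subunits of the respiratory chain or of ATP synthase, together with 2 ribosomal RNAs and a set of transfer RNAs. Both DNA strands are transcribed as long precursors that are cut at the transfer RNAs, and most of the mRNAs receive short poly(A) tails. All other mitochondrial proteins, which include most respiratory chain subunits and the whole of the mitochondrial ribosome's protein part, come from nuclear genes. The heart is rich in mitochondria, and its reliance on oxidative phosphorylation grows as development proceeds.

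The share was 11.78%, 10.51% and 17.23% in WT replicates 1, 2 and 4 and 11.63% and 13.14% in Ts1Rhr replicates 1 and 2. It was 7.17% and 5.84% in WT replicates 3 and 5 and 5.50%, 6.12% and 5.86% in Ts1Rhr replicates 3 to 5. The library just inside the cut therefore had 10.51% and the one just outside it 7.17%. Among the hearts of the Dp3Tyb cohort WT replicate 5 had 19.5% and Dp3Tyb replicate 5 had 15.45%, while the other 8 lay between 4.85% and 6.15%. The 7 libraries over 10% thus came from 4 WT, 2 Ts1Rhr and 1 Dp3Tyb heart.

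**Figure D1:**
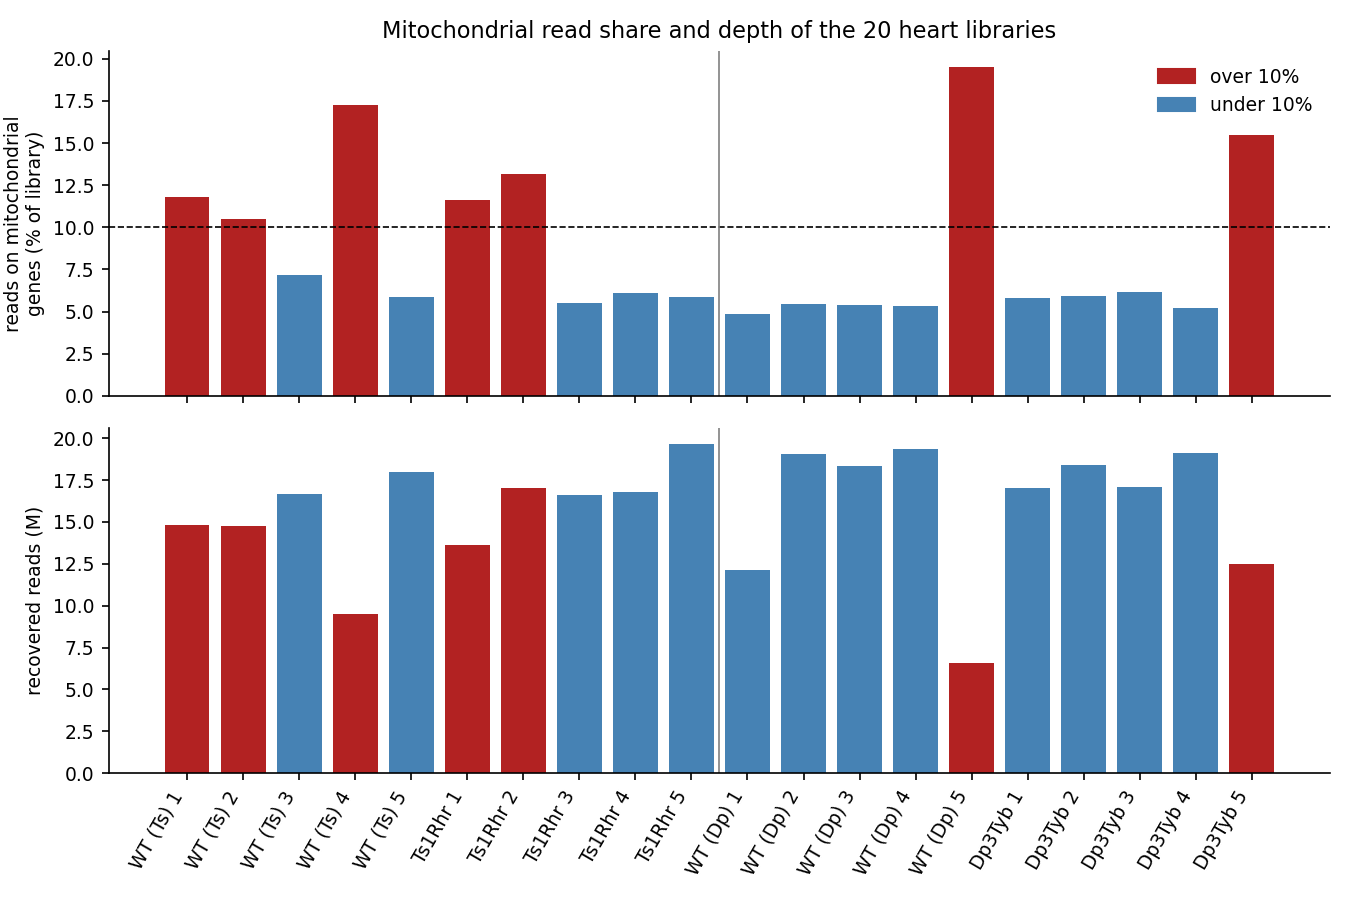
Share of reads on mitochondrial genes (upper plot, %) and recovered reads (lower plot, M, 1e6 reads) in each of the 20 libraries, with WT littermates marked by cohort (Ts or Dp) and the cut at 10% as a dashed line. The 7 libraries over 10% (red) are spread over 3 genotypes, and the 2 shallowest libraries of the series, with 9.5 and 6.60 M reads, have the highest shares, 17.23% and 19.5%.

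Other properties of the libraries moved with the share. Recovered reads were 9.5 to 17.0 M in the libraries over 10% and 16.6 to 19.6 M in those under 10% of the Ts1Rhr cohort. By Xist and Y-linked genes the libraries over 10% came from 3 male and 2 female hearts and those under 10% from 1 male and 4 female hearts, whereas in the Dp3Tyb cohort both libraries over 10% were female. In the submitters' numbering of the libraries, the 7 over 10% were numbers 9 to 14 and 17. In the labels heart defects are stated for Ts1Rhr replicates 1 and 2 and their absence for Ts1Rhr replicates 3 to 5, so that within the Ts1Rhr genotype the label and the share cannot be told apart. The study describes Ts1Rhr as a strain without such defects, so the label of those with defects goes against it. This does not hold for the 5 WT hearts, which are labelled as controls on both sides of the cut. Genotype labels were borne out by Dyrk1a, a kinase gene of the duplicated segment, which lay at 2413 to 2759 (normalised reads) in Ts1Rhr and at 1740 to 2339 in WT hearts. How much depth, sex or labelled defects contributed to the differences below was not tested beyond the fits given with them.

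Part of the mitochondrial signal was booked on nuclear genes. Of the nuclear genes in the table, 11 hold a stretch of at least 50 bases that matches the mitochondrial chromosome at 95% identity or more, and 7 of them lie side by side on chromosome 1. Gm28661, in this block, matches mt-Co2 without a difference over all of its own 681 bases, and in the libraries over 10% it was given 191150 normalised reads on average against 57276 for mt-Co2 itself. The pair with the clearest single difference, mt-Nd3 and its nuclear copy Gm28438, is shown by the first 22 bases of each transcript, since that is where reads can be told apart. The capital marks the base that differs, T3C with mt-Nd3 first and positions counted from 1 at the start of the transcript, and it was the only difference over 345 compared bases.
mt-Nd3: atTaacctgtacactgttatct
Gm28438: atCaacctgtacactgttatct
Here mt-Nd3 lies on chromosome M at 9459 to 9806 on the plus strand and Gm28438 on chromosome 1 at 24651856 to 24652200 on the minus strand (GRCm39, GENCODE vM39 annotation, from which all transcript sequences here were taken). Each mitochondrial gene is therefore described by the sum over the gene and its near-identical copies. With the copies counted, the share was 13.56% to 21.61% in the libraries over 10% of the Ts1Rhr cohort and 7.30% to 9.44% in the others, and the same 5 libraries were over 10%.

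The mitochondrial genes chose the libraries, so their differences are given without a test. They were far from uniform. Fitted folds between libraries over and under 10%, with genotype as a block, ran from 1.36 to 3.20 in the Ts1Rhr cohort. The largest was that of mt-Nd2, a subunit of complex I, which was at 159710.0, 145037, 282210.0, 154022 and 180878 in the libraries over 10% (WT replicates 1, 2 and 4 and Ts1Rhr replicates 1 and 2, an order kept below) and at 72137, 47709, 48384, 53490.0 and 53927 in those under 10% (WT replicates 3 and 5 and Ts1Rhr replicates 3 to 5). Other complex I mRNAs were close behind, at 2.89-fold for mt-Nd4, 2.83-fold for mt-Nd1 and 2.83-fold for mt-Nd5, while mt-Nd4l was at 2.41-fold and mt-Nd6, the one mRNA transcribed from the other strand, at 2.14-fold. The ATP synthase mRNAs mt-Atp8 and mt-Atp6 were at 2.98-fold and 2.51-fold, and mt-Cytb of complex III at 2.33-fold. The mRNAs of cytochrome c oxidase, complex IV, were at 2.16-fold for mt-Co2, 1.69-fold for mt-Co1 and 1.59-fold for mt-Co3.

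mt-Co1, the most abundant of these RNAs, was at 473284, 454118, 683452, 499546 and 554059 in the libraries over 10% and at 353028, 308891, 297974, 300591 and 286815 in the others, and its part of all mitochondrial reads was 19.76% over the cut and 26.45% under it. The lowest folds were those of the ribosomal RNAs, 1.36 for mt-Rnr1 and 1.5 for mt-Rnr2, and of mt-Nd3, 1.48. mt-Rnr1 was at 11980.0, 11164, 19000.0, 13648 and 13974 over the cut and at 9537, 11249, 8231, 11283 and 10309 under it, so that for this gene the 2 sets overlapped. Without its copy, mt-Nd3 showed no such difference, with 2152 ± 662 normalised reads (SD, n = 5) over 10% and 2051 ± 220 (SD, n = 5) under it. For mt-Co2 the fold was 3.71 without its copies. All 22 mitochondrial transfer RNA genes were at 0 in every library.

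In the Dp3Tyb cohort the folds were larger and their order was similar. They were lowest for mt-Nd3 at 1.99, mt-Rnr2 at 2.13 and mt-Rnr1 at 2.16 and highest for mt-Nd2 at 6.30 and mt-Atp8 at 9.0. Of the cytochrome c oxidase genes, mt-Co3 was at 2.23-fold, mt-Co1 at 2.52-fold and mt-Co2 at 4.17-fold, against 5.54-fold for mt-Nd4 and 5.42-fold for mt-Nd5 of complex I.

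**Figure D2:**
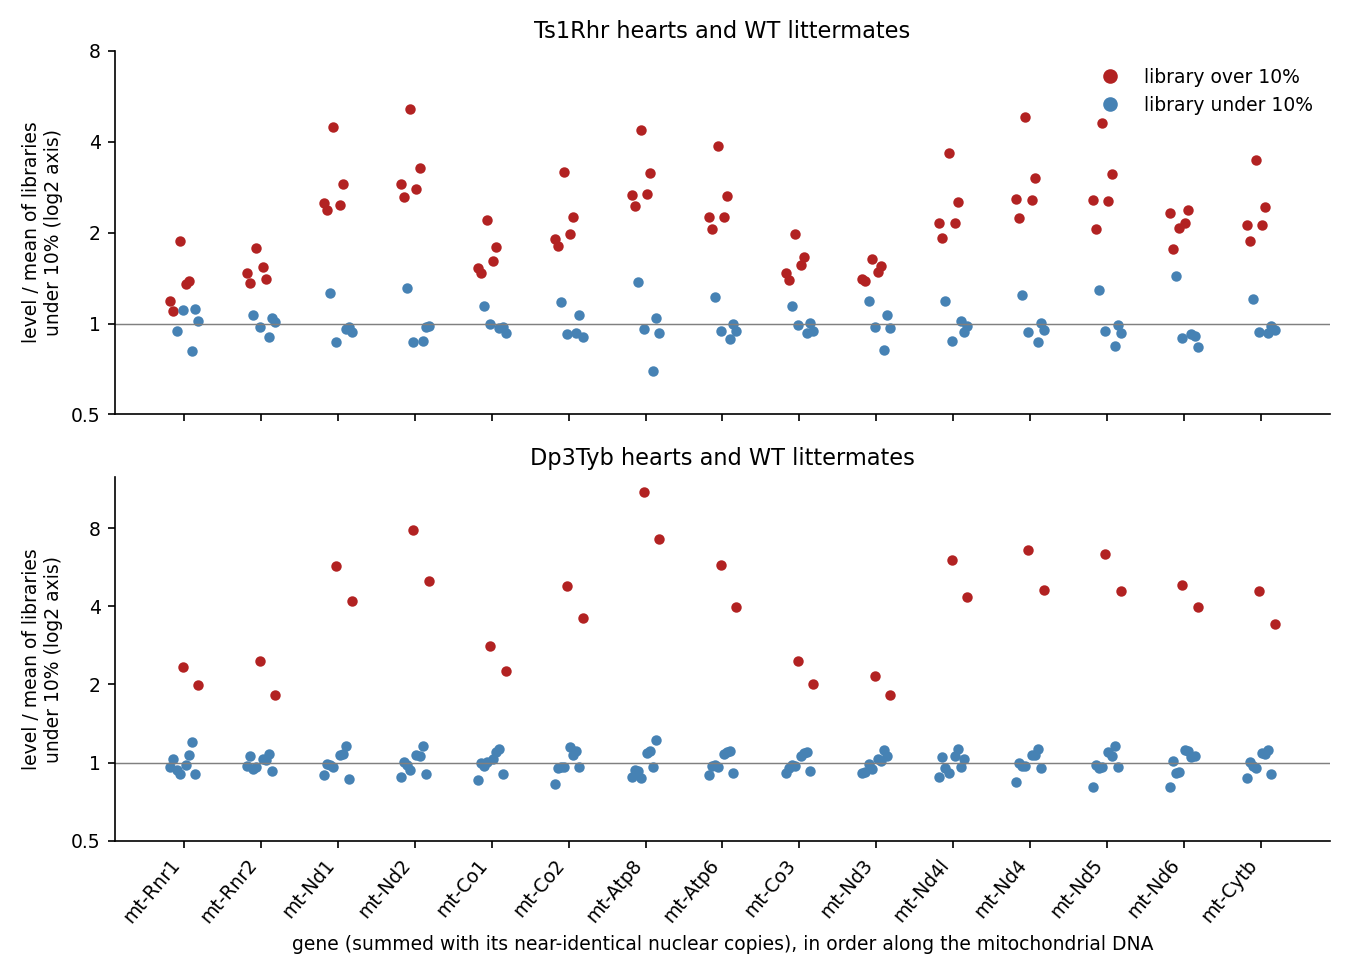
Level of each mitochondrially encoded RNA, summed with its near-identical nuclear copies, divided by the mean of the libraries under 10% of the same cohort (log2 axis), with 1 point per library and genes in their order along the mitochondrial DNA. In both cohorts the libraries over 10% (red) lie far above the others (blue) for mt-Nd2, mt-Nd4 and mt-Nd5 and much nearer to them for mt-Rnr1, mt-Rnr2, mt-Co3 and mt-Nd3.

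Nuclear genes were not used to choose the libraries, except that they make up most of the total. In the Ts1Rhr cohort 14852 of them reached a normalised value of 10 in 5 or more libraries and were fitted with limma on log2(value + 1), with genotype as a block. At an adjusted p of 0.05 (Benjamini-Hochberg, 2-sided) 3758 genes were called, which is 25.3% of those tested. These include 10 near-identical copies of mitochondrial genes, all called higher, which are no support since they hold mitochondrial reads. Of the 3758 called genes 2009 (13.53% of those tested) were higher and 1749 (11.78%) lower in the libraries over 10%. For 2944 genes (19.8%) the 5 libraries over 10% did not overlap with the 5 under it. Most differences were small. The median absolute log2 difference of the called genes was 0.35, and 126 of them exceeded 1. With the depth of the library as a further term 162 genes were called, 159 of them among the 3758 and in the same direction, and with sex as a term 1926 were called. Without Ts1Rhr replicate 2 the count was 1733, and without WT replicate 5 it was 1887. When all libraries were instead thinned to the 9.5 M reads of the shallowest one, 3331 genes were called, 3102 of them the same genes in the same direction.

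The 20 higher and the 20 lower genes with the smallest p-values, limited to protein-coding and long non-coding genes that did not overlap between the sets and had no mitochondrial stretch, are called leading genes here. The higher genes are described first. Psip1, a chromatin-bound coactivator, was at 2884, 2566, 2184, 2599 and 2498 normalised reads in the libraries under 10% and at 3944, 3869, 4651, 3641 and 3990.4 in those over 10%, which gave a log2 difference of 0.63 ± 0.07 (SE, limma adjusted p = 0.000645). Nsrp1, a splicing regulator of nuclear speckles, was at 512, 476, 425, 517 and 478 under the cut and at 769, 749.7, 982, 753 and 909.8 over it, a log2 difference of 0.78 ± 0.09 (SE, limma adjusted p = 0.000645). Every library over 10% was higher than every library under it for both genes, and the highest value of each in this cohort was in WT replicate 4, the library with its largest mitochondrial share.

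Ybx1, an abundant RNA-binding protein with a cold-shock domain, was at 12162, 11263, 10882, 11496 and 10094 in the libraries under 10% and at 16255, 15264, 20518, 16142 and 16888 in those over 10% (log2 difference 0.58 ± 0.08). Cycs, which encodes cytochrome c, the electron carrier between complexes III and IV, was at 4087, 3399, 3373, 3576 and 3078 under 10% and at 5343, 5075, 6395, 5381 and 5612 over it, so the 2 sets were again apart. The remaining higher genes with the largest differences followed the same pattern. They included Kin, a nucleic acid-binding protein (log2 difference 0.83 ± 0.10), Sfr1, a cofactor of homologous recombination (0.81 ± 0.10), Zcrb1 of the minor spliceosome (0.62 ± 0.08), Cfdp1, a chromatin protein (0.62 ± 0.08), Nemf of ribosome-associated quality control (0.57 ± 0.07) and Utp3 of the small ribosomal subunit processome (0.57 ± 0.08). Srp54a, the GTPase subunit of the signal recognition particle, differed by 0.81 ± 0.09, Gm14326 by 0.77 ± 0.10, Fam221b by 1.49 ± 0.17 and Gm44732, a long non-coding RNA, by 1.2 ± 0.15.

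The lower leading genes were led by Lars2, the leucyl-tRNA synthetase of mitochondria. It was at 1801, 2206, 2150.0, 1906 and 2184 in the libraries under 10% and at 898, 983, 849.8, 928 and 907 in those over 10%, a log2 difference of -1.15 ± 0.07 (SE, limma adjusted p = 8.18e-07). No library over 10% came above 983 and none under 10% fell below 1801. Rpl22l1, a paralogue of a ribosomal protein, was at 733, 859.5, 821, 836 and 852 under the cut and at 451, 492, 427, 489 and 373 over it, a log2 difference of -0.88 ± 0.08 (SE, limma adjusted p = 0.000123). Atp5f1e, the nuclear-encoded epsilon subunit of ATP synthase, was at 806, 1126, 1051, 947 and 912 under 10% and at 616, 596, 477, 680.2 and 524 over 10%. Thus this subunit fell (log2 difference of Atp5f1e -0.73 ± 0.11) in the libraries in which the mitochondrially encoded subunits mt-Atp6 and mt-Atp8 were higher.

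Further lower genes with mitochondrial products were Prdx3, a peroxide-removing enzyme (log2 difference -0.55 ± 0.09), Pgam5, a phosphatase (-0.50 ± 0.07), and Sardh, sarcosine dehydrogenase (-0.49 ± 0.08). In whole hearts fewer cells of a type and less RNA per cell cannot be told apart, which bears on genes of single cell types. Among these, Stab1, a scavenger receptor of macrophages and some endothelia, was at 2120.2, 2059.5, 2365, 2197 and 2294 in the libraries under 10% and at 1459, 1612, 1175, 1535 and 1674 in those over 10% (log2 difference -0.54 ± 0.08). Med22 of the Mediator complex (-0.51 ± 0.07), Gga2, a Golgi clathrin adaptor (-0.54 ± 0.08), Akr7a5, an aldo-keto reductase (-0.62 ± 0.09), Nudt16l1, a regulator of DNA repair (-0.65 ± 0.10), Unc119b, a carrier of lipid-modified proteins (-0.54 ± 0.09), Vsig10 (-0.59 ± 0.09) and Abhd8 (-0.74 ± 0.12) were also lower. All 40 leading genes remained called with sex as a term, after thinning, with edgeR and with DESeq2. Gm28037, described below, is among them. It passed the filter on low values only through the libraries over 10%, so its calls are no support. With depth as a term 31 of the 40 remained called.

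The hearts of the Dp3Tyb cohort share no library with those that chose the leading genes, although the authors scaled all 20 libraries together. In their 2 libraries over 10% against 8 under it, all 40 leading genes differed in the direction of the Ts1Rhr cohort, and all 40 passed the test in the limma fit of that cohort, in which 55% of all genes tested were called. One of them, Gm28037, passed the filter on low values in both cohorts only through the libraries over 10% and is no support, which leaves 39. Over all 14835 nuclear genes fitted in both cohorts 82.6% had the same direction. Among the 3755 of them called in the Ts1Rhr cohort the share was 99.3%, with 3535 called in both in the same direction. Across those 3755 genes the log2 differences of the cohorts had a Pearson correlation of 0.929, and across all 14835 genes it was 0.748, both descriptions over genes that are not independent of each other. Lars2 was at 2269.7 to 3002 in the 8 libraries under 10% and at 807 and 1069.9 in WT replicate 5 and Dp3Tyb replicate 5. Psip1 was at 2278 to 2558 in those 8 and at 5511 and 4575 in the pair over the cut. For both genes neither library over 10% reached the range of the others.

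**Figure D3:**
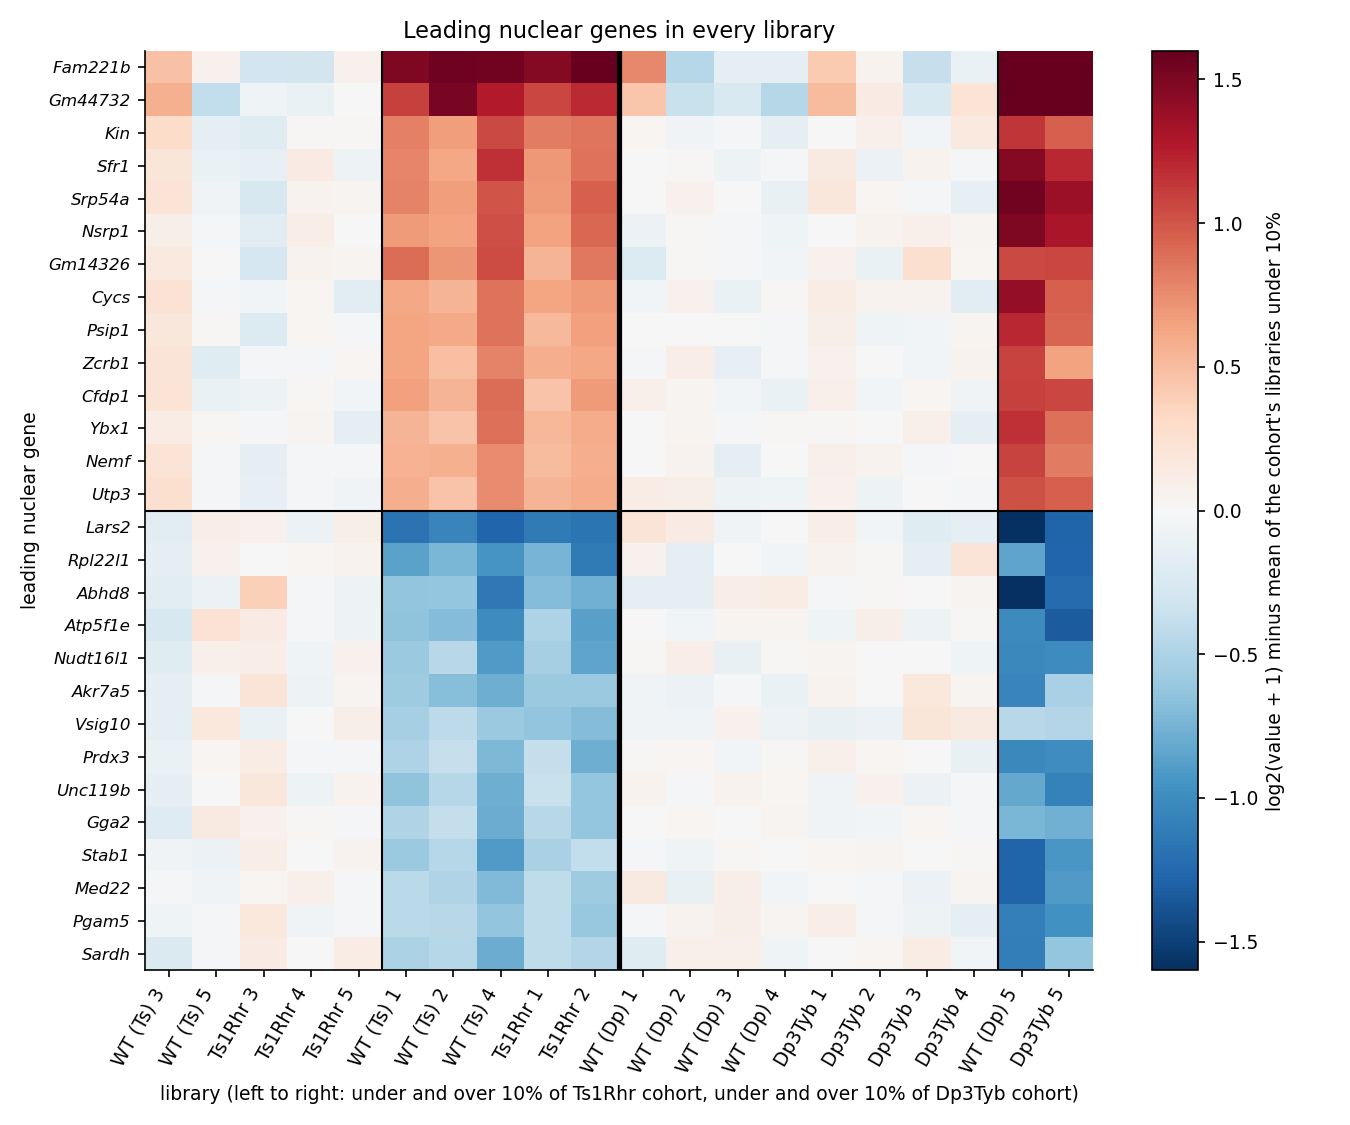
Leading nuclear genes named in the text (28 rows, without Gm28037) in the 20 libraries (columns), as log2(value + 1) minus the mean of the libraries under 10% of the same cohort. Higher genes are red and lower genes blue in all 7 libraries over 10%, and for most genes the contrast is stronger in the last 2 columns, the libraries over 10% of the Dp3Tyb cohort, with exceptions such as Vsig10.

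Many more genes were called in the Dp3Tyb cohort. There, 8551 of 15545 nuclear genes that reached 10 in 2 or more libraries were called, or 55% of those tested, with 4130 (26.6%) higher and 4421 (28.4%) lower. With depth as a term 3889 were called. The median absolute log2 difference of the called genes was 0.51. Of the 3755 genes called in the Ts1Rhr cohort and fitted in both, 3372 had a larger absolute difference in the Dp3Tyb cohort, where the libraries over 10% had shares of 15.45% and 19.5% against a mean of 12.86% ± 2.62 (SD, n = 5). The difference between the cohorts was tested by an interaction in a limma fit of all 20 libraries, which called 1462 of 15333 genes (9.53%). It called 1 gene, Rps23-ps1, when the 10% cut was replaced by the log2 of the mitochondrial share in each cohort. Without WT replicate 5 of the Dp3Tyb cohort, the shallowest library and the one with the highest share, 8 genes were called. Removing either library over 10% of that cohort leaves a single one, which is assumed to vary like the others, and without Dp3Tyb replicate 5 the count was 2549. Leaving out a library of the Ts1Rhr cohort gave 2991 (WT replicate 4), 2206 (Ts1Rhr replicate 3), 958 (WT replicate 1), 742 (WT replicate 3) and 665 (Ts1Rhr replicate 1). The size of the difference for Stab1, for example, was -0.54 ± 0.08 in the Ts1Rhr cohort and -1.11 ± 0.06 in the Dp3Tyb cohort (limma interaction adjusted p = 0.00985), while for Lars2 it was -1.15 ± 0.07 and -1.49 ± 0.12 (limma interaction adjusted p = 0.113).

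**Figure D4:**
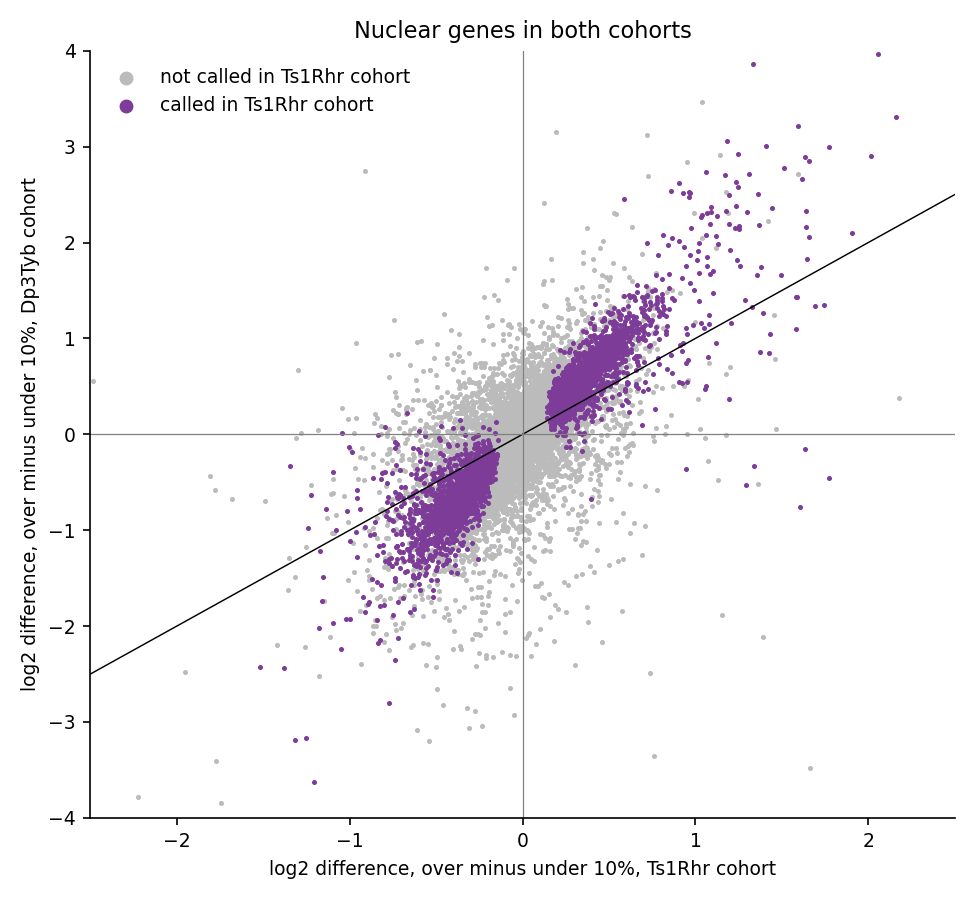
Log2 difference of each nuclear gene between libraries over and under 10% in the Ts1Rhr cohort (horizontal axis) and in the Dp3Tyb cohort (vertical axis), for 14835 genes of which 29 lie outside the axes. Purple genes, called in the Ts1Rhr cohort, lie almost wholly at the lower left and upper right and mostly beyond the line of equal size, with 3728 of 3755 in the same direction.

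Whether the differences depended on genotype was tested by an interaction. The interaction of the 10% cut with genotype within the Ts1Rhr cohort called 0 of 14852 genes with limma (0%), and 178 genes had an unadjusted p under 0.05. edgeR called 0 genes and DESeq2 called 1, 2210418O10Rik, which limma also called when Ts1Rhr replicate 3 was left out. In simulated libraries of the same depth the limma interaction recovered 65% of genes with a log2 difference of 1 and 5% of those with 0.5. Small interactions would thus mostly have been missed. The changed genes were drawn only from those with many reads, so recovery of genes near the filter was not measured. Taken alone, the 3 WT hearts over 10% and the 2 under it gave 6 calls, Lars2 (log2 difference -1.13) and Gm28037 among them, and the 2 and 3 Ts1Rhr hearts gave 1285. Leading genes were chosen without overlap across both genotypes, which fixes their direction within each. Psip1, for instance, differed by 0.61 in WT and by 0.66 in Ts1Rhr hearts.

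The most extreme leading gene was Gm28037, and its reads could not be separated from those of a neighbour. Gm28037 is annotated as a long non-coding RNA on chromosome 16 from 55786706 to 55801084, on the plus strand (GRCm39). It starts inside Rpl24, a gene for a protein of the large ribosomal subunit, and reaches into Zbtb11, a zinc finger gene. Bases 1 to 485 of its 611-base transcript are identical to Rpl24, and only 126 bases lie outside that match. Whether those 126 bases are shared with Zbtb11 was not tested. Its sequence from base 456 to 515 is shown because it holds the end of the shared part. Bases shared with Rpl24 are in lower case and those beyond the match in capitals.
Gm28037: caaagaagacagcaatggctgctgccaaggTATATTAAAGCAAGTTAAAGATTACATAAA
Gm28037 was at 0 in all 5 libraries under 10% of the Ts1Rhr cohort and at 706, 254, 972, 390.4 and 965 normalised reads in those over 10%. Taking 3 counts in a library as the limit that a count of 0 allows, at most 2.69 normalised reads here, it was at least 244-fold higher. In the Dp3Tyb cohort it was at 731 and 827 in the libraries over 10% and at 0 to 6.0 in the other 8. Rpl24 moved the other way, from 3935, 4187, 3809.7, 4328 and 3657 under the cut to 3141, 3659.5, 3753, 3466 and 2784 over it. The sum of both genes was 3935, 4187, 3809.7, 4328 and 3657 under 10% and 3847, 3913, 4726, 3856 and 3749 over it, and its log2 difference was -0.01 in the Ts1Rhr cohort and 0.06 in the Dp3Tyb cohort. The libraries therefore differed in how reads of this locus were divided between overlapping transcripts, while the sums overlapped between the sets.

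Of the 40 leading genes 15 shared at least 300 bases at 95% identity or more with another gene, and the sums with these partners kept the direction for 14, all but Gm28037. For Srp54a the log2 difference was 0.81 alone and 0.30 when summed with Srp54c, a paralogue that matches over 2317 bases. For Cycs it was 0.65 alone and 0.38 with its 4 partners, of which Gm10053 matches over 946 bases. Gm44732 shares 422 of its 635 bases with Cdkn1c, an inhibitor of the cell cycle, and had 1.2 alone and 0.53 summed, and Gm14326 had 0.77 alone and 0.46 with its 9 partners. The values of Ybx1, Rpl22l1 and Il11ra1 changed little, since their partners held few reads. Differences of genes with such partners are thus uncertain in size.

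Base composition differed between higher and lower genes. Nuclear genes were ranked by the G+C share of their main transcript and put into 10 bins of equal size, and the median log2 difference fell without exception from 0.14 in the lowest bin (30.8% to 42.0% G+C) to -0.21 in the highest bin (58.1% to 75.5%). In the lowest bin 26.5% of genes were called higher and 1.29% lower, and in the highest bin 3.73% were called higher and 26.8% lower. The Dp3Tyb cohort showed the same order, from 0.29 to -0.47. Spearman's rho across genes was -0.403 in the Ts1Rhr cohort (14743 genes) and -0.453 in the Dp3Tyb cohort (15403 genes), whereas that with transcript length was 0.056 and 0.060. These correlations describe genes of the same libraries and carry no test.

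**Figure D5:**
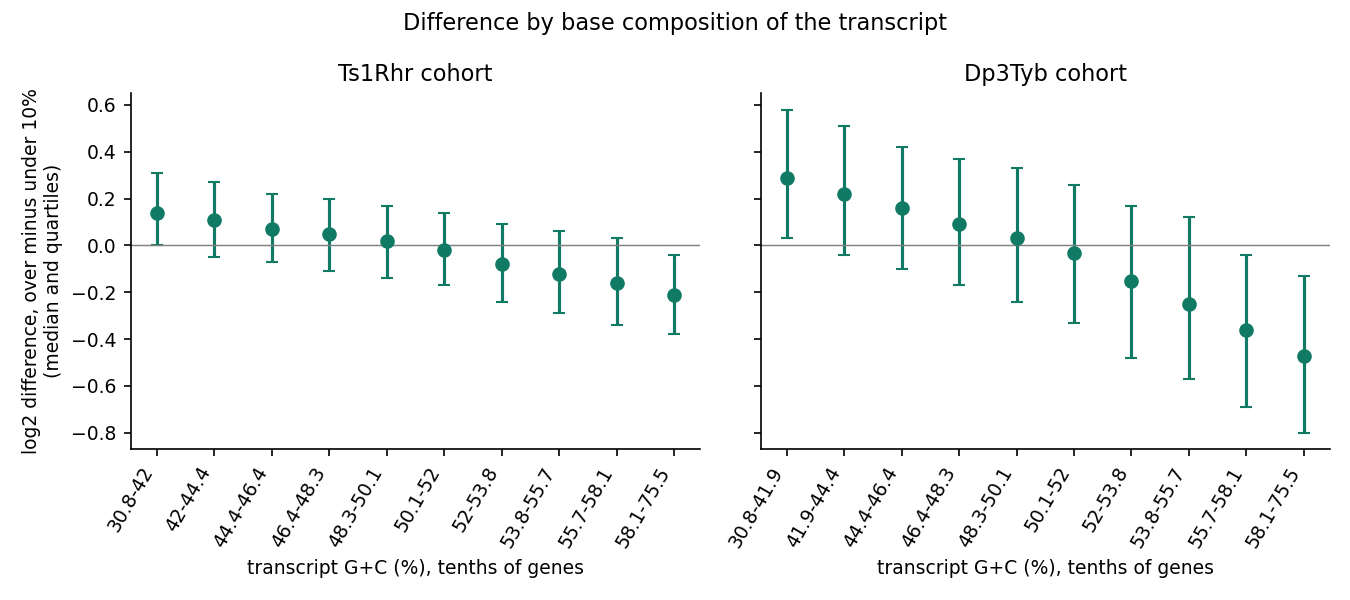
Median log2 difference between libraries over and under 10% (points, with quartiles as bars) for nuclear genes in 10 bins of transcript G+C share, in each cohort. In the Ts1Rhr cohort the median goes from 0.14 in the bin with the least G+C to -0.21 in the bin with the most, and in the Dp3Tyb cohort from 0.29 to -0.47.

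The coding sequences of the leading genes had a median G+C share of 47.2% in the 18 coding genes of the higher set and 56.8% in the 20 of the lower set, and at the third codon position the medians were 48.2% and 65.2%. A window of 60 coding bases is printed for 2 higher genes, Psip1 and Nemf, and 2 lower ones, Stab1 and Abhd8, so that this contrast can be seen. These 4 were picked after their values were known, and each window is the one whose G+C share is nearest to that of the whole coding sequence, with G and C in capitals.
Psip1: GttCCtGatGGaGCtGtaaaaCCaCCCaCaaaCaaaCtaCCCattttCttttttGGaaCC
Nemf: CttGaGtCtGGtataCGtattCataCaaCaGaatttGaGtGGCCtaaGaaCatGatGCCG
Stab1: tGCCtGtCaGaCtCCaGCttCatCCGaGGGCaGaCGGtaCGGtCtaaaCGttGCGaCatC
Abhd8: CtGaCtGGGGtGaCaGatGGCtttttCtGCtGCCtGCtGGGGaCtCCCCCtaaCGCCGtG
G and C make up 41.7% of the Psip1 and Nemf windows, 56.7% of the Stab1 window and 61.7% of that of Abhd8. Whole coding sequences of Psip1 (42.0%) and Nemf (42.1%) lie below the median of their set, and those of Stab1 (57.4%) and Abhd8 (61.6%) above theirs. The 2 sets overlapped, with 39.8% to 56.9% in the higher and 39.7% to 63.4% in the lower genes. Ybx1, which was higher, has 56.9% in its coding sequence, and Rpl22l1, which was lower, has 39.7%. In an alternative chosen after seeing the data, the median deviation of each library within 20 bins of G+C share was subtracted. After this 3244 genes were called, of which 2469 were among the 3758 called before in the same direction. All 40 leading genes remained called, with Gm28037, which is no support, among them.

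Gene lists written by hand were described by their counts and medians, beside 13.53% of all genes tested called higher and 11.78% called lower, and a median of -0.01. The lists were written with earlier results of these data known. The lists for nuclear-encoded respiratory chain subunits held genes of both directions. In complex I, 6 of 36 genes were called higher and 11 lower, with a median of -0.06. Ndufa12 was at 1041, 981, 1006, 985 and 904 in the libraries under 10% and at 1320.5, 1369, 2002, 1428 and 1463 in those over 10% (log2 difference 0.59 ± 0.10), while Ndufv1, a subunit of the NADH-binding part, had a difference of -0.41 ± 0.08. In complexes II to V and cytochrome c, 5 of 44 were higher and 13 lower, with a median of -0.13. Uqcrb of complex III was higher (0.81 ± 0.13) and Cox5a of complex IV lower (-0.41 ± 0.08). Lower calls made up 30.6% of the complex I list and 29.5% of that of complexes II to V, against 11.78% of all genes tested, and higher calls 16.7% and 11.4% against 13.53%. In the Dp3Tyb cohort complex I had 13 higher and 14 lower of 36, and complexes II to V 13 higher and 20 lower of 44. There 26.6% of all genes tested were called higher and 28.4% lower.

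Genes of fatty acid oxidation and of glycolysis and the hypoxia response were called in the lower direction only in the Ts1Rhr cohort. In the first list 8 of 20 were lower and none higher, with a median of -0.19. Echs1, the enoyl-CoA hydratase, was at 987, 1209, 1157, 1056 and 1082 under the cut and at 839, 795, 704, 923 and 711 over it (log2 difference -0.46 ± 0.08), and Acads, the short-chain acyl-CoA dehydrogenase, was at 709, 812, 1056, 835 and 770.4 and at 563, 628, 392, 687 and 485 (-0.58 ± 0.15). In the second list 10 of 37 were lower and none higher, with a median of -0.21, Pgk1 with -0.35 ± 0.08 and Pfkl with -0.39 ± 0.08 among them. In the Dp3Tyb cohort 4 genes of the first list were higher and 11 lower, and 1 gene of the second was higher and 14 lower, with medians of -0.22 and -0.11, where 26.6% of all genes tested were higher and 28.4% lower. Of 18 tricarboxylic acid cycle genes 3 were called higher and 0 lower by limma, with a median of -0.04.

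Nuclear genes that serve mitochondrial gene expression were called in both directions. In the list of mitochondrial DNA replication, transcription and RNA processing 7 of 39 were higher and 2 lower, with a median of 0.11, against 0.04 after the G+C bins were removed. Mtres1, a factor that acts on mitochondrial transcription and translation under stress, was at 390.5, 331, 341, 345 and 267 in the libraries under 10% and at 504, 529.5, 731, 519 and 543 in those over 10% (0.72 ± 0.11). Ssbp1, which coats single-stranded mitochondrial DNA, differed by 0.40 ± 0.07 and Rexo2, an oligoribonuclease, by 0.69 ± 0.14. Polg, the mitochondrial DNA polymerase, was at 898, 990.5, 1049, 902 and 933 under the cut and at 744, 809, 528, 768 and 682 over it and was lower (-0.44 ± 0.10). Mitochondrial ribosomal proteins divided into 12 higher and 9 lower of 79, shares near those of all genes tested, with a median of 0.04, and in the Dp3Tyb cohort into 24 higher and 25 lower, again near the shares of all genes there. The list for mitochondrial biogenesis and dynamics had 5 higher and 6 lower of 37, with Gabpa, a transcription factor of nuclear respiratory genes, at 0.30 ± 0.05 and Fis1, an outer membrane fission protein, at -0.32 ± 0.07. Cytosolic ribosomal proteins had 13 higher and 27 lower of 78, with Rps26 at 0.50 ± 0.08 and Rpl37a at -0.36 ± 0.06.

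The lists for RNA splicing and decay and for G2 and M phase held more higher than lower calls. In the first, 11 of 31 were higher and 2 lower, with a median of 0.14. Rbm25, a splicing factor, was at 3989, 3489, 3058, 3523 and 3484 under the cut and at 5333, 5011, 7149, 4972 and 5602 over it (0.64 ± 0.09). In the G2 and M list 9 of 25 were higher and 1 lower, with a median of 0.16. Mki67, the proliferation marker, was at 9091, 6639.5, 5991, 6598 and 6452 in the libraries under 10% and at 9870.1, 11449, 12613, 9436 and 10889 in those over 10% (0.61 ± 0.09), and Cenpe, a kinetochore motor, differed by 0.59 ± 0.10. Of the S phase list 3 of 25 were higher and 1 lower. After the G+C bins were removed the medians of the splicing and the G2 and M lists were 0.07 and 0.08, with 13 and 11 genes called, and those of the fatty acid and glycolysis lists were -0.19 and -0.18. Among 13 nuclear-retained non-coding RNAs 3 were higher and 0 lower by limma, with a median of -0.01. Malat1 was at 8922, 7588, 5655, 7057 and 6459.7 under 10% and at 11231, 10388, 11851, 12296 and 9359 over it (0.60 ± 0.10), and Kcnq1ot1, an antisense RNA of an imprinted region, was at 468, 303, 266, 339 and 330.4 and at 1336, 559, 1780.0, 1222 and 747 (1.58 ± 0.34).

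Lists of stress genes held calls in both directions. The list of immediate early and heat shock genes had 7 higher (21.9%) and 2 lower (6.25%) of 32 tested, with Klf6 at 0.36 ± 0.07 and Jun at 0.49 ± 0.10, and summed levels of 45276 to 54189 in the libraries under 10% and 56680 to 60817 in those over 10%. The integrated stress response list had 3 higher and 2 lower of 21, with the mitochondrial chaperonin genes Hspe1 and Hspd1 at 0.43 ± 0.09 and 0.22 ± 0.05 and Phgdh, of serine synthesis, at -0.49 ± 0.10. Its summed level was 28792 to 31225 under the cut and 31783 to 32882 over it, so that the sums of neither list overlapped between the sets, with medians of 0.03 and -0.08 over single genes. Abundant chaperone genes held a large part of these sums, such as Hsp90aa1 with means of 12140 under and 14850 over 10% in the first list and Hspd1 with 9932 and 11490 in the second. In the Dp3Tyb cohort the first list had 9 higher and 11 lower of 32 and the second 6 higher and 9 lower of 21. Their medians were -0.12 and -0.2 there, where 26.6% of all genes tested were called higher and 28.4% lower. Interferon genes had 0 higher and 1 lower of 18 in limma, Ifi27 at -0.53 ± 0.15. Of the replication-dependent histone list only 3 of 23 genes could be tested, of which 1, H1f2, was lower.

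Markers of cell types gave mixed counts. Of 30 cardiomyocyte markers 9 were called higher and 1 lower, with a median of 0.06, and their summed level was 557121 to 734900 in the libraries under 10% and 609721 to 721102 in those over 10%. Tnnt2, cardiac troponin T, was at 43823, 44936, 45173, 39387 and 38075 under the cut and at 52765, 50531, 73393, 61276 and 59233 over it (0.48 ± 0.10), while Mybpc3, myosin-binding protein C, was lower (-0.40 ± 0.10). Macrophage markers had 4 lower and 0 higher of 14 by limma, with a median of -0.23 and summed levels of 2175 to 2925 under 10% and 1910 to 2676 over 10%. Csf1r, the receptor for colony stimulating factor, was at 467, 514, 645, 559 and 629 under 10% and at 399.5, 374, 348, 365 and 449 over it (-0.49 ± 0.08), and Fcgr1 differed by -0.96 ± 0.21. Their part in the difference of Stab1 was not tested. Endothelial markers had 2 higher and 4 lower of 15, with Emcn at 0.51 ± 0.10 and Esam at -0.64 ± 0.11.

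Epicardial markers had 1 higher and 1 lower of 10 and mesenchymal markers 1 higher and 1 lower of 20. Erythroid markers had 0 calls among 14 in limma, with a summed level of 112842 to 245747 under the cut and 67875 to 174361 over it. In the Dp3Tyb cohort, however, 7 of 14 were lower and 0 higher, with a median of -0.54. There 28.4% of all genes tested were called lower and 26.6% higher. In the Ts1Rhr cohort lung and foregut and liver markers had 0 calls in limma among 13 and among 3 tested. The neural crest and Schwann list had 1 higher of 12, Hand2 at 0.62 ± 0.10, which the heart itself also expresses, and a median of -0.13. Hand2 made up most of its summed levels of 2096 to 2625 under 10% and 2859 to 3457 over it. Skeletal muscle markers had 3 higher of 9, with Tnnt3 at 0.95 ± 0.15, and summed levels of 5111 to 7443 and 5033 to 6818. Whether tissue taken along with the heart contributed was not tested.

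Apart from the near-identical copies of mitochondrial genes, the 4 most abundant nuclear genes were H19, Igf2, Myh7 and Eef1a1. H19, an imprinted non-coding RNA, was at 147648, 142692, 145844, 138733 and 130915 in the libraries under 10% and at 182183, 169504, 218147, 185533 and 189198 in those over 10%, a log2 difference of 0.41 ± 0.07 (SE, limma adjusted p = 0.00286). Igf2, its neighbour and a fetal growth factor, was at 104011, 96592, 104879, 99389.9 and 96871 under the cut and at 133223, 122481, 172093, 122490.0 and 139494 over it, a log2 difference of 0.44 ± 0.09 (SE, limma adjusted p = 0.00435). Neither gene overlapped between the sets. Myh7, a cardiac myosin heavy chain, had 0.08 ± 0.11 (SE, limma adjusted p = 0.629) and Eef1a1, a translation elongation factor, -0.07 ± 0.06 (SE, limma adjusted p = 0.367), and the sets overlapped for both.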

How the data were processed

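Gene expression was measured by RNA sequencing of 20 E13.5 mouse hearts, 5 of each genotype and of its WT littermates. Per the submitters' processing notes the tools were Trimmomatic 0.36, STAR 2.5.2a, RSEM 1.2.31, DESeq2 and DESeq, with the GRCm38 genome. The deposited table holds a normalised signal, gene counts that the authors divided by a size factor per library, and 100% of values came out as whole reads (largest deviation 2e-09). Recovered reads may be rounded RSEM estimates, which share multi-mapped reads between genes, and whether strand was used in counting is not given in the sources used here. The table held 48795 genes, and 91.3% had a match in GENCODE vM39 (GRCm39), which gave symbols, positions and sequences, while the reads were mapped to GRCm38. Libraries held 6.60 to 19.6 M recovered reads.

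The share of chromosome M genes divided the libraries at 10%. Members and gene lists were chosen with earlier results of these data known. Nuclear genes that reached 10 in 5 or more libraries (2 or more in the Dp3Tyb cohort) were fitted with limma 3.58.1 in R 4.3.3 on log2(value + 1), with trend and robust settings, genotype as a term and Benjamini-Hochberg adjustment over all nuclear genes fitted. Fold changes are on this scale and understate changes of low genes. edgeR 4.0.16 and DESeq2 1.42.0 were run on the recovered reads. Near-identical transcripts were found with blastn 2.17.0. Alternatives were other pseudocounts (0.1 and 10), no filter, other size factors, thinning, terms for sex and depth, each genotype alone, the share as a continuous term and leaving out each library. Removal of G+C or length bins and the slope form of the cohort interaction were chosen after seeing the data. For simulated libraries of the Ts1Rhr cohort the main fit recovered 98% of genes changed by a log2 of 1 and 70% at 0.5. It made 8 false calls among 14852 genes. For those of the Dp3Tyb cohort it recovered 98% and 72%, with 26 false calls among 15545 genes. The cohort interaction recovered 85% and 49%, with 11 false calls among 15333 genes. Changed genes were drawn only from those with many reads, so recovery of genes near the filter was not measured.

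Leading genes were the 20 higher and 20 lower protein-coding or long non-coding genes with the smallest p among those called, without overlap between the sets and without a mitochondrial stretch. The text names the 15 of each direction with the largest difference, except 1 lower gene that is not reported here, up to 4 called genes per list by smallest p, all mitochondrial mRNAs and ribosomal RNAs, and the 4 genes with the highest mean. Partners and copies of these, Dyrk1a, and genes that make up a count of 5 or fewer were named after their values were seen.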

Additional observations from a re-analysis of the deposited data

Results flagged for a closer look

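In 10 of 94 sets of 5 libraries checked, 1 library stood apart from the other 4 by Dixon's test. The sets share libraries and include genes chosen by their values, so the rate of about 1 in 20 for independent sets does not apply. Of the flagged sets 6 are of mitochondrial genes, whose values chose the libraries, so that they are descriptions only. WT replicate 4, with the largest mitochondrial share of the Ts1Rhr cohort, was highest among the libraries over 10% for mt-Nd1 (418100) and mt-Nd2 (282200), both with their copies, and lowest for Sardh (306.2). WT replicate 3, with the largest share under 10%, was highest among the libraries under it for mt-Nd1 (118200), mt-Nd2 (72140), mt-Cytb (144000) and mt-Nd6 (5848), and for Utp3 (828.6). Ts1Rhr replicate 3, with the smallest share of the cohort, was highest for Abhd8 (399.6) and Pgam5 (675.8) among the libraries under 10%. The size of the difference between libraries over and under 10% differed between the cohorts for 1462 nuclear genes in the limma interaction. Of the 1451 that were fitted in both cohorts, 1348 (92.9%) had the same direction and a larger difference in the Dp3Tyb cohort.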

How the results depend on the processing

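In the Ts1Rhr cohort, where 3758 genes were called, a sex term gave 1926 calls, a depth term 162, WT hearts alone 6 and Ts1Rhr hearts alone 1285. Of these calls 1896, 159, 5 and 1245 were among the 3758. Leaving out 1 library gave 1733 to 3836, or 3846 without WT replicate 2 when 5 libraries were still required in the filter. In the Dp3Tyb cohort 3889 genes were called with the depth term, against 8551 without it. How many of the 3889 are among the 8551 was not counted. Leaving out 1 library under 10% there gave 8172 to 8599. The interaction with genotype called 1 gene with DESeq2, and leaving out 1 library gave 0 to 1. The interaction with cohort called 1 gene with the log2 share as a continuous term, and leaving out 1 library gave 8 to 2991. Without WT replicate 5 or Dp3Tyb replicate 5 a single library over 10% remained in the Dp3Tyb cohort and was assumed to vary like the others. Why these counts moved was not tested. Dld changed sign to -0.007 when G+C bins were removed, and Myh7 to -0.044 with the depth term and to -0.019 in WT hearts alone, none past the threshold there. All 40 leading genes kept their direction in the Dp3Tyb cohort under every alternative run on that count, with Gm28037, which is no support, among them. edgeR called 3808 and DESeq2 3997 genes in the Ts1Rhr cohort, with 3711 and 3670 of the 3758 among them. Of the calls, 53.5% were higher, against 83.3% with the depth term. No paired analysis was possible because the labels give no replicate numbers, and those used here only follow the order of deposit. Depth limits what can be said of genes with few reads, most of all in the shallowest library, at 6.60 M reads.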
